A study of Mus musculus with 8 samples.

Results

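The EphB receptors and their ephrin-B ligands were followed in the cerebral cortex of newborn mice that carry the R342X mutation in Phf6. The family was taken by gene symbol and comprises 8 genes of the 53392 in the files: the receptors Ephb1, Ephb2, Ephb3, Ephb4 and Ephb6, and the ligands Efnb1, Efnb2 and Efnb3. All 8 were expressed well enough to be among the 20097 genes tested. The tissue was cortex of FVB/N pups at postnatal day 0, with 4 mutant and 4 wild-type libraries. R342X is a nonsense change in Phf6, which lies on the X chromosome and encodes a chromatin-associated zinc finger protein. The design text states the aim as a comparison of cortical expression profiles that depend on this mutation. No sex, litter or batch is named in the labels, so the p-values reflect only how far these libraries scatter, which may be technical if they do not come from separate animals.

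EphB receptors are receptor tyrosine kinases that bind ephrin-B ligands on a neighbouring cell. Because ephrin-B ligands also span the membrane, a contact signals forward into the receptor's cell and in reverse through the ligand's cytoplasmic tail. In the developing cortex the family is known for guiding axons, positioning and maintaining progenitors, and building excitatory synapses, and Efnb2 and Ephb4 are classic markers of arteries and veins.

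Depth ran from 30469745 to 74266937 estimated reads per library, and every wild-type library was deeper than every mutant library. Phf6 itself was at 39.3 to 43.6 CPM (read counts scaled to library size) in mutants and 72.1 to 91.9 CPM in wild type, so each mutant library was lower than each wild-type library. The leading principal component of log2 CPM, with 35.3% of the variance, split the libraries into 2 sets. Set 1 holds mutants 1, 2 and 3 and also wild-type 1, and set 2 holds mutant 4 and also wild-type 2, 3 and 4. No label explains the sets, and each holds a single library of one genotype, so set and genotype are partly mixed. Markers of cortical excitatory neurons summed to 1882 to 2112 CPM over the 8 libraries, with Tbr1, a deep-layer transcription factor, at 202 to 218 CPM. Genes typical of neighbouring tissue were present as well, among them Ttr of the choroid plexus at 485 to 758 CPM.

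Per unit of transcript length, ephrin-B3 was the most abundant member and EphB4 the least. Levels between genes are given in TPM, which scale reads by effective transcript length and library size. Efnb3 stood at 136 TPM on average over the 8 libraries (range 122 to 153), followed by Efnb2 at 77.4 TPM (70.1 to 88.4), and this order held in 8 of 8 libraries. Ephb6, a receptor whose kinase domain is catalytically inactive, averaged 51.9 TPM (42.4 to 60.2) and lay below Efnb2 in all 8. Next came Ephb1 at 44.9 TPM (41.2 to 50.5), Efnb1 at 41.5 TPM (34.6 to 47.6) and Ephb2 at 37.2 TPM (32.6 to 41.3). These neighbours were not separated beyond their spread: Ephb6 exceeded Ephb1 in 7 libraries, Ephb1 exceeded Efnb1 in 5, and Efnb1 exceeded Ephb2 in 6. A wide step followed, with Ephb2 at 3.95 to 5.80 times the TPM of Ephb3 in each library. Ephb3 averaged 7.92 TPM (6.24 to 8.64) and Ephb4 6.43 TPM (5.66 to 7.13), with Ephb3 the higher of the pair in 7 libraries.

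**Figure D1:**
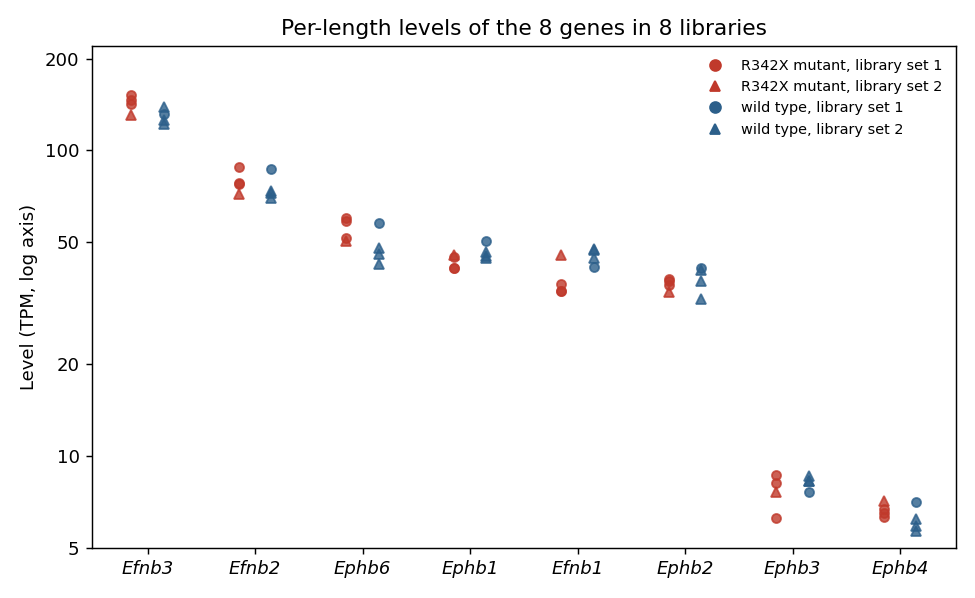
Level of each of the 8 genes in TPM on a log axis, 1 point per library, ordered by mean, with mutants on the left and wild type on the right of each column and the symbol giving the library set. Efnb3 lies between 122 and 153 TPM and Ephb3 and Ephb4 lie below 9 TPM, while the ranges of Ephb6, Ephb1, Efnb1 and Ephb2 overlap.

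The place of Ephb6 in that order depended on a short fragment. A 459-base transcript (ENSMUST00000167497.1) took 17.1% to 29.4% of Ephb6 TPM but only 1.49% to 2.93% of its estimated reads. With transcripts of at least 1000 bases alone, a choice made after seeing the values, Ephb6 averaged 40.5 TPM and fell in place behind Ephb1 (44.9 TPM), level with Efnb1 (40.4 TPM). Ephb3 moved to 6.86 TPM under the same choice.

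Summed over the family, the 5 receptors held 149 ± 7.26 TPM in the mutant libraries and 147 ± 13.0 TPM in those of wild type, and the 3 ligands held 260 ± 7.84 and 250 ± 10.6 TPM (SD, n = 4 each). Mutants had a ligand to receptor ratio of 1.74 ± 0.07 by TPM, and wild type had 1.70 ± 0.09, with all libraries between 1.59 and 1.84. Within the receptors Ephb6 made up 37.0% ± 1.76 of TPM in mutants and 32.8% ± 1.62 in wild type, and Ephb1 29.0% ± 1.83 and 31.7% ± 1.20. Among the ligands Efnb1 took 14.6% ± 2.52 in mutants and 18.1% ± 1.61 in wild type. In mutant 4 and wild-type 1, each alone of its genotype in its library set, the Ephb6 share was 34.8% and 35.2%. The Efnb1 share of those libraries was 18.35% and 15.9%. These sums and shares are descriptions and were not tested.

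No member of the family was called different between genotypes. In the edgeR quasi-likelihood fit over all genes 0 of 8 members passed a Benjamini-Hochberg adjusted p of 0.05, where 0.0199% of all genes tested passed, and their adjusted p-values ran from 0.276 (Efnb1) to 0.957 (Efnb2). At an unadjusted p under 0.05 stood 2 of the 8, Efnb1 and Ephb1, against 13.7% of all genes. DESeq2's Wald test called 0 of 8, against 2.63% of the genes it adjusted, and limma-voom also called 0. For 0 of 8 members were the CPM values of the genotypes free of overlap, which held for 6.15% of all genes. The log2 fold change (mutant over wild type) was below 0 for 5 members and above 0 for 3, with a median of -0.05, beside 0.00 over all genes tested. The median absolute log2 fold change was 0.10 for the members and 0.12 for all genes.

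**Figure D2:**
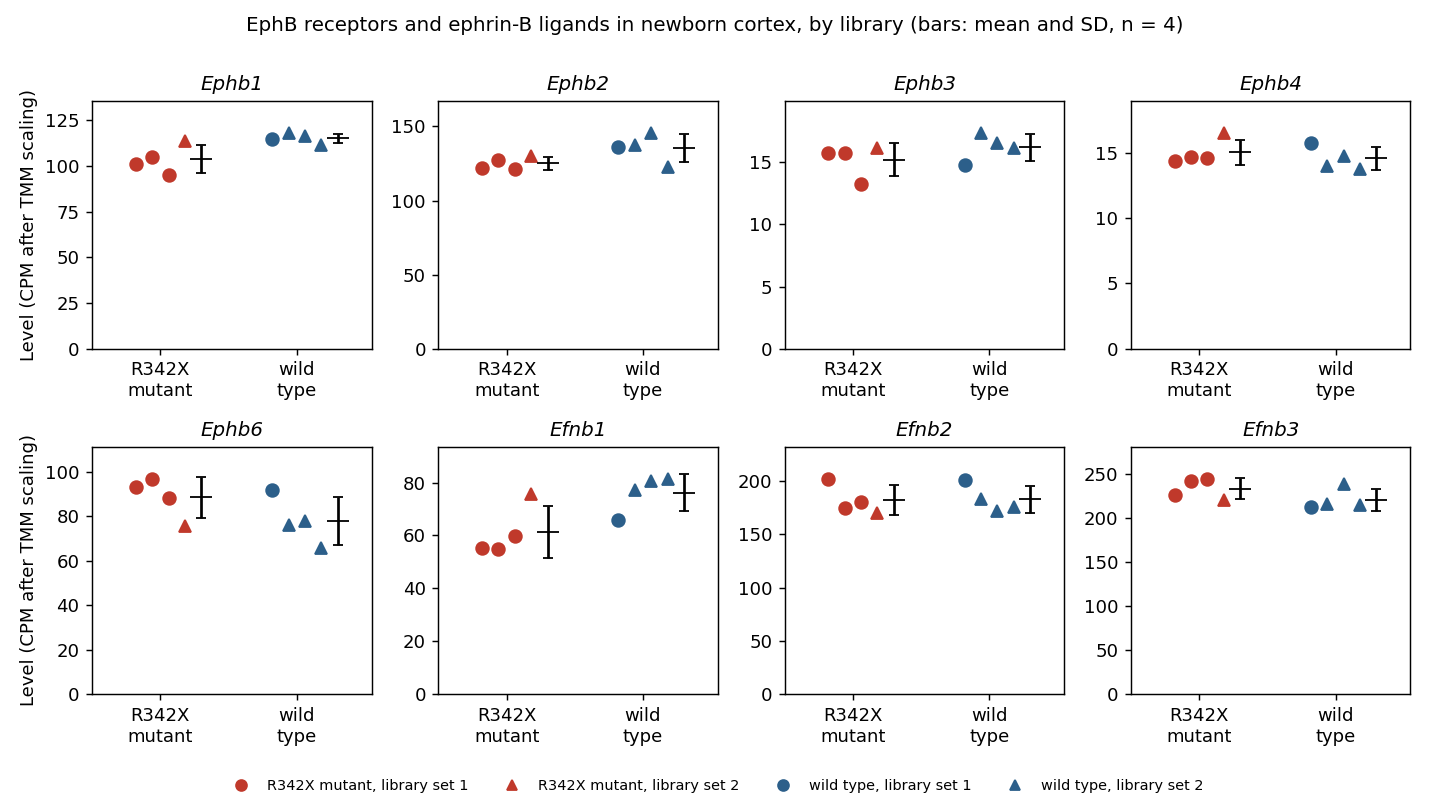
Level in CPM after TMM scaling for each gene in each library, on axes that start at 0, with the mean and SD of 4 libraries as bars and the library set as the symbol. Mutant and wild-type libraries overlap for every gene, and for Efnb1, Ephb6 and Ephb3 the 4 libraries of set 1 lie apart from the 4 of set 2, as they do for 33.3% of all genes tested.

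Efnb1 encodes an X-linked ligand (X, 99136130 to 99148991 in GRCm38) known from neural progenitors and from craniofrontonasal syndrome. It had the largest difference in the family. Mutants 1 to 4 measured 55.3, 54.8, 59.7 and 75.8 CPM, and wild-type libraries 1 to 4 measured 65.9, 77.2, 80.5 and 81.4 CPM. Mutants 1 to 3 lay below every wild-type library, and mutant 4 lay above wild-type 1. The means were 61.4 ± 9.85 and 76.2 ± 7.14 CPM (SD, n = 4 each), the mutant mean being 80.5% of the other. On the log2 scale the fold change was -0.31 ± 0.11 (SE, 95% interval -0.55 to -0.08; edgeR adjusted p = 0.276). Without mutant replicate 4 it was -0.43 and passed the threshold (adjusted p = 0.0299), in a fit that called 3.58% of all genes. Over all 16 alternatives the adjusted p ran from 0.0299 to 0.618.

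The difference of Efnb1 was smaller inside the library sets. It was -0.22 on the log2 scale in set 1 (3 mutants against 1 wild type) and -0.07 in set 2 (1 mutant against 3 wild type). Between the sets Efnb1 differed more: set 1 stood 0.42 lower on the log2 scale among mutants and 0.27 lower among wild-type libraries. With the set as a term in the model the genotype fold change was -0.15 ± 0.05 (SE, 95% interval -0.25 to -0.04; edgeR adjusted p = 0.195). In that fit 0 of 8 members were called, against 0.602% of all genes. The set was drawn from these same libraries, so the errors, intervals and p-values of that fit are descriptions.

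Efnb2, the artery-marking ligand (8, 8617434 to 8661242), was at the same mean level in both genotypes. It measured 202, 175, 180 and 170 CPM in mutants 1 to 4 and 201, 183.5, 172 and 176 CPM in the wild-type libraries. The high libraries were mutant 1 and wild-type 1. The means were 182 ± 14.1 and 183 ± 12.7 CPM, and the log2 fold change was -0.01 ± 0.07 (SE, 95% interval -0.16 to 0.14; edgeR adjusted p = 0.957). Its sign turned with offsets for transcript length (0.013) and without wild-type replicate 1 (0.045).

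Efnb3, the ligand that stops corticospinal axons at the midline (11, 69554092 to 69560205), measured 226, 241, 244 and 220 CPM in mutants and 212, 216, 238 and 214.5 CPM in wild type. Mutants 2 and 3 lay above all wild-type libraries, and wild-type 3 lay above mutants 1 and 4. The log2 fold change was 0.08 ± 0.05 (SE, 95% interval -0.04 to 0.20; edgeR adjusted p = 0.501), and it was 0.16 in set 1 and -0.02 in set 2.

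Among the receptors, Ephb1 and Ephb2, the EphB kinases of axon guidance and of the excitatory synapse, were somewhat lower in mutants by their means. Ephb1 (9, 101922128 to 102354693) stood at 101, 105, 94.9 and 113 CPM in mutants 1 to 4 and at 115, 118, 116 and 111 CPM in wild type. Mutants 1 to 3 lay below all wild-type libraries, and mutant 4 lay above wild-type 4. Its log2 fold change was -0.15 ± 0.06 (SE, 95% interval -0.27 to -0.03; edgeR adjusted p = 0.302), with -0.19 in set 1 and -0.02 in set 2. The gene overlaps annotated genes on both strands, among them the protein-coding 9630041A04Rik on the opposite strand, and the use of strand in the quantification is not given in the sources used here.

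Ephb2 (4, 136647539 to 136835988) stood at 122, 127, 121 and 130 CPM in mutants and at 136, 138, 145 and 122 CPM in wild type. Wild-type 4 lay inside the range of the mutants, and the other wild-type libraries lay above all 4 mutants. The log2 fold change was -0.12 ± 0.06 (SE, 95% interval -0.24 to 0.01; edgeR adjusted p = 0.386), and it was -0.10 with the set as a term.

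The pair of low receptors gave the least information per library. Ephb3 (16, 21204755 to 21223305), a receptor shared with Ephb2 in commissural axon guidance, rested on 480 to 1216 reads. Its CPM was 15.7, 15.7, 13.2 and 16.1 in mutants and 14.8, 17.3, 16.5 and 16.1 in wild type. Its log2 fold change stood at -0.09 ± 0.08 (SE, 95% interval -0.27 to 0.09; edgeR adjusted p = 0.609), and it was -0.025 without mutant replicate 3 and -0.018 with the library set as a term. Ephb4 (5, 137350109 to 137378669), the venous receptor for Efnb2, rested on 450 to 1086 reads. Its CPM was 14.4, 14.7, 14.6 and 16.5 in mutants and 15.8, 14.0, 14.8 and 13.8 in wild type. Its log2 fold change stood at 0.045 ± 0.07 (SE, 95% interval -0.12 to 0.21; edgeR adjusted p = 0.792). The within-set differences of Ephb4 had opposite signs, -0.12 in set 1 and 0.22 in set 2, and without mutant replicate 4 its fold change was -0.003.

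Ephb6 (6, 41605482 to 41620509) had the largest positive fold change of the family on genotype alone, though not with the library set as a term. It measured 93.2, 96.7, 88.3 and 75.8 CPM in mutants 1 to 4 and 91.9, 76.0, 77.7 and 65.5 CPM in the wild-type libraries. The low mutant was replicate 4 and the high wild-type library was replicate 1. The log2 fold change was 0.19 ± 0.10 (SE, 95% interval -0.04 to 0.42; edgeR adjusted p = 0.430), and it was 0.03 ± 0.06 with the set as a term (adjusted p = 0.870), below Efnb3 (0.07) and Ephb4 (0.049). With single libraries left out it ran from 0.113 (without wild-type replicate 4) to 0.283 (without wild-type replicate 1). Inside the sets the difference was 0.01 in set 1 and 0.06 in set 2. Between the sets it was larger, with set 1 higher by 0.29 among mutants and by 0.34 among wild-type libraries.

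**Figure D3:**
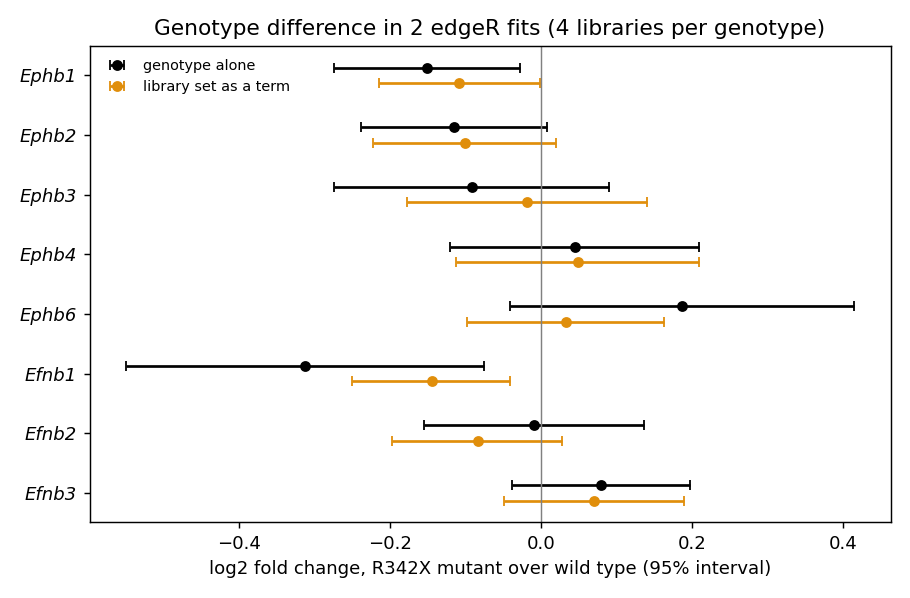
Log2 fold change of each gene, mutant over wild type, with its 95% interval, in the edgeR fit on genotype alone (black) and with the library set as a term (orange), 4 libraries per genotype. Efnb1 moves from -0.31 to -0.15 and Ephb6 from 0.19 to 0.03 when the set is held, and the other members shift by less.

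Efnb1 and Ephb6 thus separated the library sets in opposite directions. Efnb1 lay between 54.8 and 65.9 CPM in set 1 and between 75.8 and 81.4 CPM in set 2. Ephb6 lay between 88.3 and 96.7 CPM in set 1 and between 65.5 and 77.7 CPM in set 2. Ephb3 did not overlap either, at 13.2 to 15.7 CPM in set 1 and 16.1 to 17.3 CPM in set 2. These are 3 of 8 members, a share near that of all genes tested, of which 33.3% did not overlap between the sets. Because the sets were drawn from these same libraries, the separation is described and not tested. Of 17 marker lists, 3 had summed CPM that did not overlap between the sets. The oligodendrocyte lineage list summed to 323 to 336 CPM in set 1 and 262 to 299 CPM in set 2, the thalamus list to 227 to 247 and 260 to 278 CPM, and the arterial list to 46.7 to 53.2 and 55.1 to 61.9 CPM. Gene by gene, 6 of 9 oligodendrocyte lineage markers lay apart, all higher in set 1. On the thalamus list only Lhx2 (lower in set 1) and Prox1 (higher in set 1) lay apart of 8 markers, and on the arterial list only Hey1 (lower in set 1) of 7. Lhx2 (116 to 161 CPM over the 8 libraries) was the largest part of the thalamus sum. Hey1 (22.95 to 32.61 CPM) was the largest part of the arterial sum. Which cells Lhx2 and Hey1 came from was not tested. Lists whose sums overlapped also held markers that lay apart, beside the 33.3% of all genes tested. Radial glia had 4 of 10 (Pax6, Vim, Hes1 and Hes5) and endothelial cells 3 of 10, all lower in set 1. Astrocytes had 3 of 8 and striatum 3 of 10, all higher in set 1. Excitatory neurons had 2 of 10 higher and 3 lower. Between genotypes 2 lists did not overlap: excitatory neurons at 1882 to 1969 CPM in mutants and 2039 to 2112 CPM in wild type, and astrocytes at 1195 to 1309 and 1009 to 1132 CPM. No marker on any list was called on genotype alone or stood at 0 in all libraries. Holding the set in the model let some markers pass, beside 0.602% of all genes. Neurod6 of excitatory neurons was lower in mutants (log2 fold change -0.32, edgeR adjusted p = 0.0305), as was Neurog2 of intermediate progenitors (-0.54, 0.0363). Higher in mutants were Acta2 of mural cells (0.89, adjusted p = 0.0422) and Aldh1a2 of meningeal fibroblasts (0.48, 0.011). Each was the single call on its list, of 10, 6, 8 and 8 markers tested in the order named. The list medians in that fit were -0.05, -0.14, 0.15 and 0.34. Each list also held a marker of the opposite sign: Slc17a7 (0.21), Btbd17 (0.004), Kcnj8 (-0.11) and Lum (-0.07). Those p-values are descriptions, since the set came from these same libraries. The part of these cell types in the levels of the members was not tested, and in bulk tissue fewer cells of a type cannot be told apart from less RNA per cell.

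**Figure D4:**
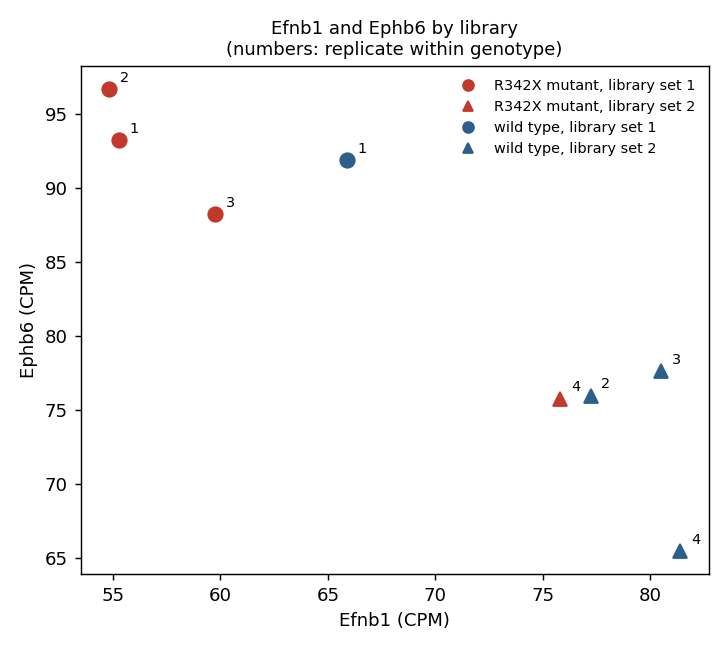
Level of Efnb1 against level of Ephb6 in CPM, 1 point per library, labelled with its replicate number within the genotype. The 4 libraries of set 1 have Ephb6 at 88.3 CPM or more with Efnb1 at 65.9 CPM or less, and those of set 2 have Ephb6 at 77.7 CPM or less with Efnb1 at 75.8 CPM or more.

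The proximal promoters of this pair are printed because the genes moved apart across the same libraries. Each is the 250 bases before the RefSeq start site (GRCm38.p6, plus strand), with GC boxes (GGGCGG, either strand) and CCAAT boxes (CCAAT, either strand) in capitals. Efnb1 is chrX:99135811-99136060 and Ephb6 is chr6:41605261-41605510.
Efnb1: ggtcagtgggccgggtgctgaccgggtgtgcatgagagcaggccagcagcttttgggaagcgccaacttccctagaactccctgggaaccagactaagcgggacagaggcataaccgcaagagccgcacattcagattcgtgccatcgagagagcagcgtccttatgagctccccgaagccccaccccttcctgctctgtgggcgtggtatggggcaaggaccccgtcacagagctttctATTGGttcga
Ephb6: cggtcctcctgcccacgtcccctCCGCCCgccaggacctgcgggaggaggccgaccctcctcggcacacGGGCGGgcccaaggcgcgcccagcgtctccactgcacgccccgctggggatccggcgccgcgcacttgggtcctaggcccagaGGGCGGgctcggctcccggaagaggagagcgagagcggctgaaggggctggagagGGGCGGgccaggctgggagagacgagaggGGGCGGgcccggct

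The 2 windows differ in base composition. That of Ephb6 holds 5 GC boxes, 0 CCAAT boxes and 27 CpG dinucleotides at 76.8% G and C. That of Efnb1 holds 0 GC boxes, 1 CCAAT box and 13 CpG at 60% G and C. Over 32851 promoter windows of the same length, 32.7% hold a GC box and 33.9% a CCAAT box, and the median number of CpG is 6. Of the 7 members found in the RefSeq table, GC boxes occur in the windows of Ephb3, Ephb4, Ephb6 and Efnb2. A match of letters is no evidence of binding.

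Transcripts within the genes were compared next, since a sum per gene hides a change of form. Of 33 annotated transcripts 29 had reads, and 14 had a mean share of 5% to 95% of their gene's TPM. An exact two-sided permutation test of the shares over all 70 assignments of libraries called 0 of the 14, with 0 at an unadjusted p under 0.05. The smallest p was 0.143 (0.831 adjusted over the 14), for the main Ephb3 transcript at 82.4% ± 6.85 in mutants and 74.5% ± 4.61 in wild type (SD, n = 4 each). The smallest p this test can give is 0.0286. After adjustment over the 14 a lone transcript could therefore not pass 0.05, so the 0 calls cannot show that no share differed.

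Ephb2 was the only member with 3 coding transcripts that each took over 10% of TPM in all libraries. They differ in where the last exon ends and in 3-base segments at the starts of exons 7 and 9. The segments are printed with 21 bases on each side, 5′ to 3′ on the minus strand of chromosome 4, with the variable bases in capitals. The exon 7 segment lies at chr4:136675531-136675533 and the exon 9 segment at chr4:136672508-136672510 (GRCm38, GENCODE M21).
Exon 7, in ENSMUST00000059287.13: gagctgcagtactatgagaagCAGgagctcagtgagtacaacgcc
Exon 7, in ENSMUST00000105845.8 and ENSMUST00000105846.8: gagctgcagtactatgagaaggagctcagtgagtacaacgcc
Exon 9, in ENSMUST00000105846.8: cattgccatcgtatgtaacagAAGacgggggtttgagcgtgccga
Exon 9, in ENSMUST00000105845.8 and ENSMUST00000059287.13: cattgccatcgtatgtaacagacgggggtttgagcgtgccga

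Each segment adds 3 bases to the coding sequence and so keeps the reading frame. The transcript with the exon 7 segment, 4804 bases long, took 48.3% ± 5.12 of Ephb2 TPM in mutants and 46.3% ± 2.65 in wild type (exact permutation p = 0.629). The transcript with neither segment is 10902 bases long, most of it the last exon, and took 29.3% ± 3.07 and 29.2% ± 1.58 (exact permutation p = 0.886). The transcript with the exon 9 segment, 3653 bases long, took 22.8%, 23.6%, 23.0% and 10.9% in mutants 1 to 4 and 27.3%, 20.8%, 23.5% and 18.0% in wild type (exact permutation p = 0.657). Mutant 4 was the lowest library for this form, and it held the highest share of the other two. Since long shared stretches separate the transcripts only at these segments and at their ends, the assignment of reads among them carries an error that the files do not give.

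**Figure D5:**
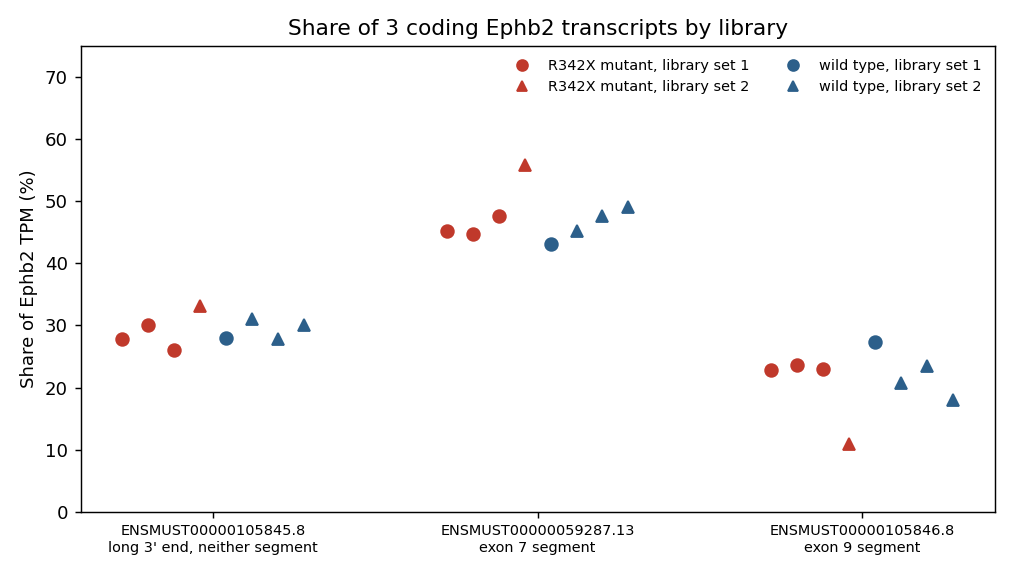
Share of Ephb2 TPM in percent for 3 coding transcripts, 1 point per library in the order mutant 1 to 4 and wild type 1 to 4, with the library set as the symbol. Genotypes overlap for each transcript, and mutant 4 stands at 10.9% for the form with the exon 9 segment against 18.0% to 27.3% in the other 7 libraries.

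Ephb4 carried a longer variable segment. The main transcript took 79.5% ± 9.34 of Ephb4 TPM in mutants and 81.2% ± 4.28 in wild type (exact permutation p = 0.771). A second coding form includes 27 further bases at the start of exon 7 (chr5:137362363-137362389, plus strand, GRCm38), which again keep the frame, and took 14.3% ± 5.83 and 11.8% ± 7.37 (exact permutation p = 0.657). It rested on 24.1 to 153 estimated reads per library.
Ephb4, ENSMUST00000111055.8: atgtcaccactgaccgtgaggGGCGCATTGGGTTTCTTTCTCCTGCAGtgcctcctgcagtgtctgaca
Ephb4, ENSMUST00000061244.14: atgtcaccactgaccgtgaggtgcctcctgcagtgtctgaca

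The remaining genes were carried mostly by single coding transcripts, which held on average 88.7% (Ephb3) to 100% (Efnb3) of their gene's estimated reads. All coding transcripts together made up at least 96.2% of the reads of Ephb1 and 99.1% of those of Efnb1 in every library. For Ephb2, with its 3 coding forms, they made up at least 99.5%. Efnb3 has 1 transcript in the files. Ephb3 had 0.40% to 10.8% of its reads in retained-intron transcripts. That share was 5.96% ± 4.21 in mutants and 8.24% ± 2.41 in wild type.

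Genes that work with the EphB family showed no call either. In the edgeR fit 0 of 78 tested genes on 6 pathway lists passed, against 0.0199% of all genes. DESeq2 called 3 of the 76 it adjusted (Epha3, Nck2 and Grin1; 3.95%, against 2.63% of all genes), and edgeR without mutant replicate 4 called the same 3 of 78 (3.85%, against 3.58%). The EphA receptors and ephrin-A ligands, the sister family, had 8 of 13 tested genes above 0 and a median log2 fold change of 0.06. Epha3 led that list at 47.4 to 50.3 CPM in mutants and 56.4 to 62.1 CPM in wild type (log2 fold change -0.29 ± 0.05 SE, edgeR adjusted p = 0.133). The genotypes did not overlap for Epha3, which held for 6.15% of all genes tested. With the library set as a term Epha3 passed (-0.29, edgeR adjusted p = 0.0248), the single call among the 78 in a fit that called 0.602% of all genes. Because the set was drawn from these same libraries, that p-value is a description.

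Kinases and adaptors of forward signalling had 7 of 19 above 0 and a median of -0.03. Nck2, an adaptor that links ephrin-B tails and EphB receptors to actin, measured 73.1, 76.9, 76.8 and 84.2 CPM in mutants and 84.6, 90.2, 90.4 and 90.8 CPM in wild type (log2 fold change -0.20 ± 0.05 SE, edgeR adjusted p = 0.226). The closest of its libraries were mutant 4 and wild-type 1. Its adjusted p was 0.0348 without mutant 4, in the fit that called 3.58% of all genes, and 0.137 with the library set as a term (log2 fold change -0.13).

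Exchange factors and actin effectors had 8 of 16 above 0 and a median of 0.01. Ngef, the neuronal exchange factor ephexin, stood at 63.9 to 76.9 CPM in mutants and 54.7 to 65.2 CPM in wild type (log2 fold change 0.22 ± 0.07 SE, edgeR adjusted p = 0.269). Partners of the ephrin-B tail had 7 of 11 above 0 and a median of 0.02, with the scaffold Grip2 at -0.19 ± 0.08 (adjusted p = 0.355). That sign turned to 0.55 when only coding transcripts were summed. Proteases that shed Eph and ephrin ectodomains had 5 of 9 above 0 and a median of 0.00, with Adam17 at 0.15 ± 0.08 (adjusted p = 0.406).

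Synaptic partners had 7 of 10 above 0 and a median of 0.07. Grin1 is the obligatory subunit of NMDA receptors that Ephb2 binds at the synapse. It stood at 164 to 187 CPM in mutants and 151 to 161 CPM in wild type (log2 fold change 0.20 ± 0.05 SE, edgeR adjusted p = 0.189). The genotypes did not overlap for Grin1, as for 6.15% of all genes tested. Other pathway genes did not overlap either, among them Nck2, Rras, Ptk2 and Ryk. Depth and the library sets move with genotype in these comparisons, and their part was not tested beyond the fit with the set as a term, where Grin1 was at 0.17 (adjusted p = 0.127).

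Vascular markers are set beside Efnb2 and Ephb4, since both genes are known from vessels. The endothelial list summed to 290 to 378 CPM in mutants and 262 to 326 CPM in wild type, with 7 of 10 markers above 0 and a median log2 fold change of 0.08, which was 0.22 with the library set as a term. Arterial markers summed to 47.9 to 61.9 and 46.7 to 55.9 CPM, and venous and capillary markers to 325 to 353 and 292 to 330 CPM. Most of the venous and capillary sum came from Nr2f2 (98.1 to 138 CPM) and Tfrc (95.4 to 119 CPM) over the 8 libraries. The largest part of the arterial sum was Hey1 (22.95 to 32.61 CPM). Which cells Nr2f2, Tfrc and Hey1 came from was not tested. None of the 3 lists had a called member or a marker at 0 in all libraries.

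Genes whose level followed each member most closely were sought among 11242 coding genes, by Pearson's r of log2 CPM over the 8 libraries. These values are descriptions over libraries that also differ in set, depth and genotype, whose part was not tested. Efnb1 was closest to Mdk, the growth factor midkine, and Pimreg, a mitotic gene (r = 0.99 each). Both stood lower in set 1, by 0.56 and 0.44 on the log2 scale. Ephb6 was closest to Ptk2b, the calcium-dependent kinase PYK2, and Wdr7 (r = 0.996 and 0.995), which stood higher in set 1 by 0.30 and 0.18. Ephb1 was closest to Adnp, a chromatin regulator, and Ttc28 (r = 0.99 each).

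The closest genes were Fam168a and Dpysl5 for Ephb2 (r = 0.93 each), and Nup50 and Gng2 for Ephb3 (0.95 each). Efnb2 was closest to Rbm41 and Tmem106b (0.97 and 0.96), and Efnb3 to Fbxl15 and Klc2 (0.97 and 0.96). With 8 libraries and so many genes searched, values of this size carry no test.

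The authors' deposited table held all 8 members and called none of them, with adjusted p-values from 0.210 (Ephb1) to 0.886 (Ephb4). In the authors' deposited table the log2 fold change was -0.09 for Ephb1, -0.08 for Efnb1 and 0.02 for Ephb6, closer to 0 than the edgeR folds. Whether the folds of the authors' deposited table were shrunken is not given in the sources used here.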

How the data were processed

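Messenger RNA from newborn cortex was sequenced in 4 R342X and 4 wild-type libraries. The authors deposited expected counts (estimated reads) and TPM values per transcript, made with Salmon 0.12.0 on GRCm38 per the submitters' processing notes. Their table, made with DESeq2 per the same notes, holds a deposited signal level (mean of normalized counts), deposited log2 fold changes and deposited p-values.

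Estimated counts were summed per gene, rounded and fitted with edgeR 4.0.16 in R 4.3.3 (default filter, TMM scaling, quasi-likelihood F test, genotype alone), with p-values adjusted over all 20097 genes tested. Standard errors come from the fold and its F statistic. Log2 CPM used a prior count of 2. Alternatives were DESeq2 1.42.0, limma-voom 3.58.1, other filters (none, or 5 CPM in 4 libraries), length offsets, coding transcripts only, the replicate number as a block, the library set as a term, and each library left out. Lists and transcript shares follow the text. The fit was tested on simulated data.

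Members, lists and the library sets were chosen with earlier results of these data known. Named were all members, the called genes of each pathway list or else its smallest p, and 2 closest genes per member (those of Ephb4 are not reported here). Markers are given by list. Of the 23 lists, 17 are cell type markers. Gene positions come from GENCODE M21 and promoters from RefSeq.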

Additional observations from a re-analysis of the deposited data

Results flagged for a closer look

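In 5 of 44 groups of 4 libraries, 1 library lay far from the other 3 of its genotype (its gap to the nearest, over the range, passed Dixon's 95% critical value), where chance marks about 1 in 20. Mutant 3 was low for Ephb3 (13.2 CPM). Mutant 4 was high for Ephb4 (16.5 CPM). Wild-type 3 was high for Efnb3 (238 CPM). Mutant 4 was low for the Ephb2 transcript with the exon 9 segment (10.9% of Ephb2 TPM) and high for the 459-base Ephb6 fragment (27.4% of Ephb6 TPM). Mutant 4 is the lone mutant library of set 2, and the part of the set in these values was not tested.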

How the results depend on the processing

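Over 16 alternatives the count of members called stayed at 0, except without mutant replicate 4, where it was 1 (Efnb1); leaving out single libraries thus gave 0 to 1. The log2 fold change of Efnb1 ran from -0.43 to -0.26 over the single libraries left out. Ephb4 ran from -0.003 (without mutant replicate 4) to 0.089. Efnb2, close to 0, turned positive with length offsets (0.013), without mutant replicates 2 (0.014), 3 (0.001) or 4 (0.022) and without wild-type replicate 1 (0.045), and its lowest value with a library left out was -0.062. Grip2 turned to 0.547 with coding transcripts only. The cause was not tested. With the replicate block 0 members were called; Efnb1 stood at -0.32 (adjusted p = 0.0718), and 20 genes were called over all genes against 4 without it. Same-numbered libraries had deviations that correlated at 0.244, -0.027, -0.085 and 0.318, so the numbers are not treated as pairs. No alternative called a transcript share, though a lone transcript could not have passed the adjusted threshold. Ephb3 and Ephb4 rested on the fewest reads, and the part of depth in the errors was not tested.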
